A study of Mus musculus with 12 samples.

Results

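The E proteins Tcf3, Tcf4 and Tcf12 and the inhibitors Id1, Id2 and Id3 were followed through 3 stages of thymocyte development in WT and Ikaros-deficient mice. All probe sets whose platform symbol is one of these 6 genes were taken, which gave 19 probe sets for 6 of the 18194 genes on the array. RNA from sorted mouse thymocytes had been hybridised to 12 Affymetrix arrays, 2 for each genotype (WT or IkL/L) at each of the stages DN3, DN4 and DP, which makes 6 groups. IkL/L is the only genotype label of the Ikaros-deficient cells, and how the allele was made and the age and sex of the mice are not given in the sources used here. Each sort used a pool of cells from 3 mice, and no treatment is named. The labels do not say whether the 2 arrays of a group came from separate pools, so p-values measure the spread between these arrays. In WT that spread may be technical, while the 2 arrays of each IkL/L group differed in Y-linked signal and so did not hold RNA of a single pool.

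E proteins are basic helix-loop-helix transcription factors that bind E-box sequences as dimers and drive T-lineage genes such as Ptcra, the Rag genes and Cd4. Id proteins have the helix-loop-helix but no basic region, so they pair with E proteins and keep them off DNA. In the thymus, signals through the pre-T cell receptor and the T cell receptor are known to raise Id3, while Id2 is known for its role in innate lymphoid and natural killer cells. DN3 cells carry out the selection for a working T cell receptor beta chain, DN4 cells have passed it, and DP cells express both Cd4 and Cd8. Ikaros, encoded by Ikzf1, is a zinc finger DNA-binding protein that acts in lymphocyte development.

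The upstream sequences of Id2 and Id3 are shown because these were the inhibitors with called differences. Id3 was called between stages. Id2 was called between the genotypes and, on a probe set at the level of the array median, between stages. Each sequence is the 250 bases before the annotated start in RefSeq, build GRCm38.p6, written 5′ to 3′ on the strand of the gene. Id2 lies at chr12:25096093-25096342 on the minus strand and Id3 at chr4:136143572-136143821 on the plus strand. Capitals mark an E-box.
Id2: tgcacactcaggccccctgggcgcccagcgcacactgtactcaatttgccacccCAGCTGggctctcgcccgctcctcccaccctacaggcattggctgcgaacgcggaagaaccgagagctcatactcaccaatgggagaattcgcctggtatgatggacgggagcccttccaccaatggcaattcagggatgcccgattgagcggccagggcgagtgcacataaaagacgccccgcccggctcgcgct
Id3: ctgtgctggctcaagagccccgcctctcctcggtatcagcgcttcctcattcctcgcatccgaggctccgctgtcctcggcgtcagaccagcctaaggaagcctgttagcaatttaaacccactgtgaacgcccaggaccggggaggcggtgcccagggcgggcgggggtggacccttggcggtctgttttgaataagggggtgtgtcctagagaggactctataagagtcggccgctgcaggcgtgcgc
Both strands were searched for the E-box CAGNTG, for the Ikaros core TGGGAA and for the Egr site GCGNGGGCG, and these motifs can overlap each other. The Id2 window held 1 E-box, CAGCTG, which began 196 bases before the start. The Id3 window held none. Neither window held the other motifs. Of 32817 windows of this length in the table, 44.8% held the E-box, 21.6% the Ikaros core and 4.7% the Egr site. Of the other members, Tcf3 had 1 window in the table, with none of the motifs, and Tcf12 had 3, of which 1 held the E-box.

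Array quality touches several results. Median log2 signal per array was 5.14 to 5.22, and the correlation within a group between 0.976 in IkL/L DN3 and 0.993. The actin 3′ minus 5′ difference, a measure of how far labelling reached along the transcript, ran from 1.74 to 2.86 and was 1.92 and 2.86 on the 2 IkL/L DN3 arrays. The mean level of 3 Y-linked genes was 3.07 to 3.45 on the 3 IkL/L replicate 2 arrays and 6.59 to 8.36 on the other arrays. Ikzf1 itself, by its brighter probe set, was lower in IkL/L cells, with called differences of −0.65, −0.63 and −0.70 in DN3, DN4 and DP cells (adjusted p = 0.0192, 0.02 and 0.00998). Its other probe set was lower in DN4 cells (−1.03, adjusted p = 0.00514) and not called in DN3 (−0.29, adjusted p = 0.453) or DP cells (−0.23, adjusted p = 0.551). DN3-stage markers averaged 10.25 and 10.21 on the WT DN3 and 9.51 and 9.39 on the IkL/L DN3 arrays, against 6.30 to 7.68 on all DN4 and DP arrays. DP-stage markers averaged 12.52 to 12.81 on the DP arrays, with 9.15 and 9.36 in WT DN4 and 8.62 and 8.65 in IkL/L DN4 cells.

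Of the 19 member probe sets, 18 were tested, 13 of E proteins and 5 of Id genes. A probe set was tested where at least 2 arrays were at or above their median, and it was called at a limma adjusted p under 0.05 over the 20865 probe sets tested. The probe set not tested was 1416725_at of Tcf4, which read 3.65 to 4.44, below the median of every array. Of the tested ones, Id1 was at or above the median on 4 arrays and the Id2 probe sets 1422537_a_at and 1453596_at on 3 and 2, so their values lie at the edge of the background. The Tcf3 probe set 1452542_x_at was at or above the median on 7 arrays, all of DN3 or DN4 cells, and below it on every DP array.

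Between the genotypes, Tcf4 and Id2 were the members with called differences. In DN3 cells 1 of the 18 was called, lower in IkL/L, where 2.50% of all tested probe sets were called, 1.36% higher and 1.14% lower. In DN4 cells 4 of 18 were called, all higher in IkL/L and all of Tcf4, where 4.54% were called over all probe sets, 3.14% higher and 1.39% lower. In DP cells 4 of 18 were called, again all higher and all of Tcf4, where 3.66% were called over all, 2.68% higher and 0.983% lower. Probe sets of 1 gene read the same transcripts and are not independent of each other. The median difference over the 18 was 0.13, 0.20 and 0.14 in DN3, DN4 and DP cells, beside −0.04, 0.01 and 0.01 over all tested probe sets.

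**Figure D1:**
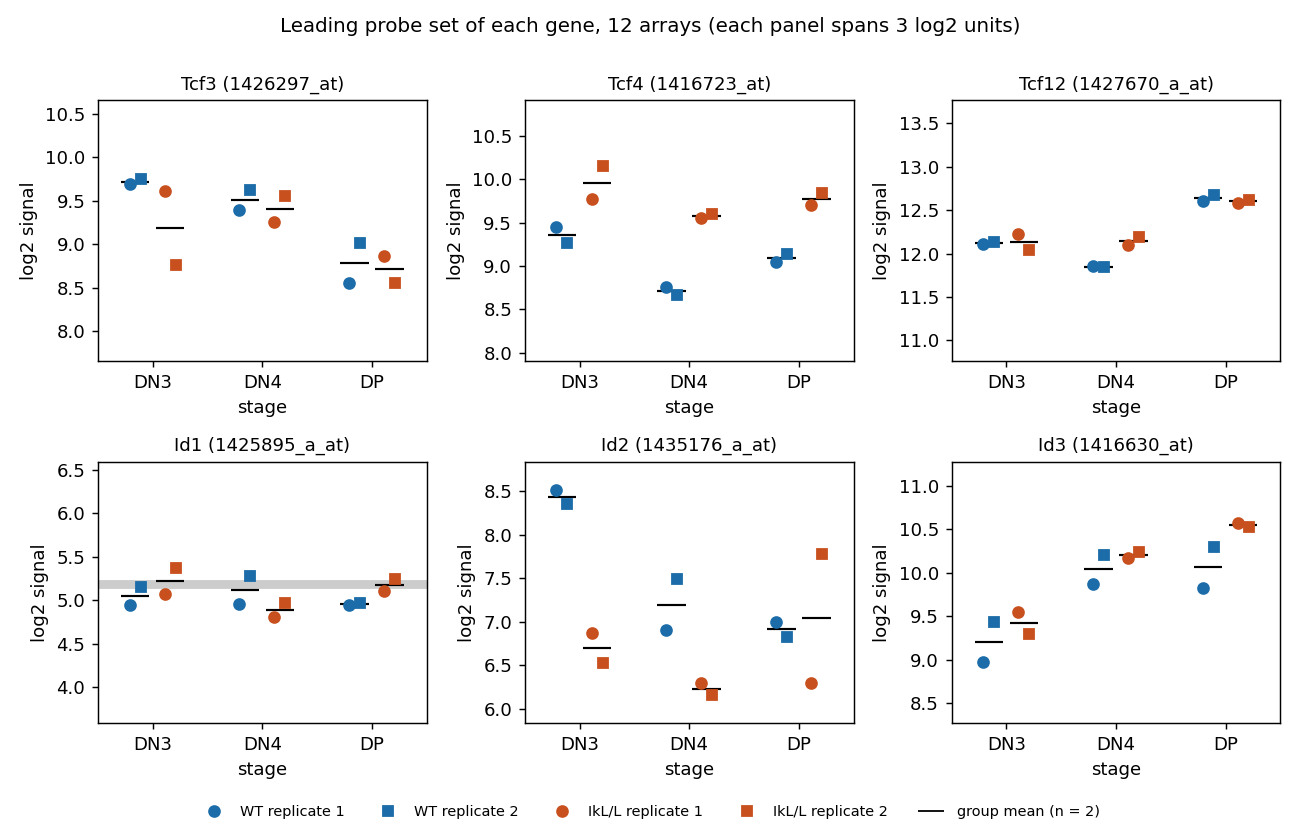
Log2 signal (y axis) of the leading probe set of each gene, the one with the highest mean over all arrays, by stage (x axis). Circles are replicate 1 and squares replicate 2, blue is WT and orange IkL/L, lines are group means of 2 arrays, and the grey band in the Id1 panel is the range of the array medians, 5.14 to 5.22. The Tcf4 arrays of IkL/L lie above those of WT at each stage, and the Id2 arrays of WT DN3, at 8.52 and 8.35, lie above all others.

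Tcf3, which encodes the E12 and E47 proteins, fell between the DN4 and DP stages and did not pass the test between genotypes. On its leading probe set 1426297_at, WT arrays read 9.69 and 9.76 in DN3, 9.40 and 9.63 in DN4 and 8.56 and 9.02 in DP cells. IkL/L arrays read 9.62 and 8.76 in DN3, 9.26 and 9.55 in DN4 and 8.87 and 8.56 in DP cells. Both DP groups lay below both DN4 groups with no overlap, and the 2 IkL/L DN3 arrays were far apart, the second of them within the range of the DP arrays.

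In WT cells the step from DN4 to DP changed this probe set by −0.73 (SE 0.26, adjusted p = 0.0379). The other Tcf3 probe sets fell by 1.26 on 1427764_a_at (adjusted p = 0.00929) and by 0.93 on 1452542_x_at (adjusted p = 0.00391) in the same step. Probe set 1452542_x_at passed the filter only through DN3 and DN4 arrays, where it is high, so its fall to DP cells is no separate support. The WT step from DN4 to DP called 55.6% of all tested probe sets, and 9 of the 18 members, so a call in it is common. In IkL/L cells, where 41.8% of all probe sets and 4 of 18 members were called in this step, 1427764_a_at fell by 0.93 (adjusted p = 0.0474) and 1452542_x_at by 0.76 (adjusted p = 0.0155). The leading probe set differed by −0.69 there (95% interval −1.28 to −0.11, adjusted p = 0.0569), and was called with the pool as a random block (adjusted p = 0.0395). With the replicate number as a block its WT step was not called (adjusted p = 0.053).

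The actin 3′ minus 5′ difference moved with this step, from 1.74 and 1.93 on the WT DN4 arrays to 2.86 and 2.29 on the WT DP arrays. With that difference as a covariate the Tcf3 step in WT was −0.26 (adjusted p = 0.427), −0.56 (adjusted p = 0.117) and −0.48 (adjusted p = 0.0367) on the 3 probe sets. The last value is that of 1452542_x_at, which lies below the array median in DP cells. The WT step of 1426297_at was also not called without any 1 of the WT DN3 or WT DN4 arrays or WT DP replicate 1, with values of −0.95 to −0.50, and that of 1427764_a_at without WT DN4 replicate 2 or WT DP replicate 1. In IkL/L cells the step of 1427764_a_at was not called without any 1 array outside the IkL/L DN3 group, with values of −1.11 to −0.75, nor that of 1452542_x_at without IkL/L DN4 replicate 1 or either IkL/L DP array.

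Between genotypes, Tcf3 differed by −0.53 in DN3 cells on the leading probe set (95% interval −1.12 to 0.05, adjusted p = 0.43), by −0.11 in DN4 cells and by −0.08 in DP cells. Of the 2 IkL/L DN3 arrays, replicate 1 lay near the WT arrays and replicate 2 below them. Without IkL/L DN3 replicate 1 the DN3 difference was −0.96 on the leading probe set and −1.53 on 1427764_a_at. These 2 values rest on replicate 2 alone. Replicate 1 read 9.62 on the leading probe set, where the WT DN3 arrays read 9.69 and 9.76. On 1427764_a_at it read 7.26, where the WT DN3 arrays read 7.46 and 7.39. The level ordered the groups as WT DN3, WT DN4, IkL/L DN4, IkL/L DN3, WT DP and IkL/L DP, and no neighbours in this order differed beyond the 95% interval of a difference. The 3 probe sets followed each other with a Pearson correlation of 0.93 to 0.95 over the 12 arrays.

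Tcf4, which encodes the E2-2 protein and is best known for its role in plasmacytoid dendritic cells, was higher in IkL/L than in WT cells at the DN4 and DP stages. On 1434148_at, WT arrays read 8.83 and 8.62 in DN3, 8.10 and 7.86 in DN4 and 8.18 and 8.06 in DP cells. IkL/L arrays read 9.33 and 9.18 in DN3, 8.91 and 8.93 in DN4 and 8.83 and 9.04 in DP cells. At each stage both IkL/L arrays lay above both WT arrays.

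The difference on this probe set was 0.94 in DN4 cells (SE 0.14, 1.92-fold, adjusted p = 0.00635) and 0.81 in DP cells (SE 0.14, 1.76-fold, adjusted p = 0.0103). In DN3 cells it was 0.53 and not called (adjusted p = 0.108). These comparisons use different arrays at each stage but share 1 estimate of the spread.

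The leading probe set 1416723_at read 9.44 and 9.27, 8.76 and 8.66, and 9.05 and 9.14 in WT DN3, DN4 and DP cells, and 9.77 and 10.15, 9.55 and 9.59, and 9.70 and 9.84 in the same IkL/L stages. Here too the genotypes did not overlap at any stage. The same held for 1427764_a_at of Tcf3 and 1446294_at of Tcf12, which were not called between genotypes. The share of all probe sets without overlap was not computed. Tcf4 1416723_at was higher in IkL/L by 0.86 in DN4 (SE 0.15, 1.82-fold, adjusted p = 0.011) and by 0.67 in DP cells (SE 0.15, 1.60-fold, adjusted p = 0.0326). In DN3 cells it differed by 0.60 (95% interval 0.28 to 0.93, adjusted p = 0.0693).

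The other 3 tested probe sets of Tcf4 were higher in IkL/L in part. Of these, 1416724_x_at was higher by 0.68 in DN4 and 0.60 in DP cells (adjusted p = 0.02 and 0.0344). On 1434149_at the DN4 difference of 0.86 was called (adjusted p = 0.0381) and the DP difference of 0.58 was not (adjusted p = 0.165). On 1424089_a_at the DP difference of 0.75 was called (adjusted p = 0.0306) and the DN4 difference of 0.57 was not (adjusted p = 0.0764). All 5 had a positive sign at all 3 stages, and in DN3 cells none was called, with differences of 0.09 to 0.60. Pairwise correlations among the 5 over the 12 arrays were 0.61 to 0.95.

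**Figure D2:**
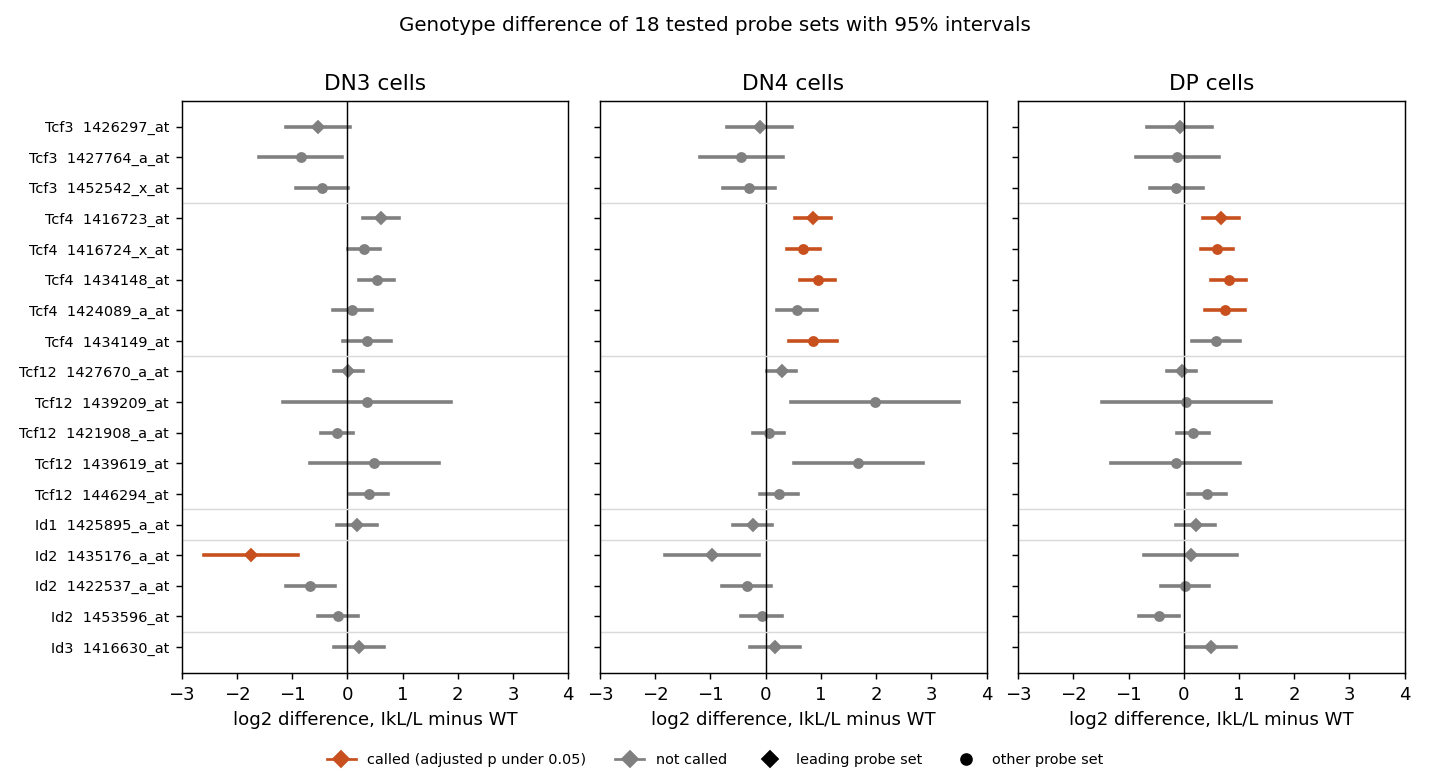
Difference between IkL/L and WT (x axis, log2, IkL/L minus WT) of the 18 tested member probe sets (y axis) in DN3, DN4 and DP cells. Points are the fitted differences, diamonds the leading probe set of a gene, bars 95% intervals, and orange marks an adjusted p under 0.05. The Tcf4 points lie to the right of 0 in all 3 panels, with 4 called in DN4 and 4 in DP cells, and Id2 1435176_a_at in DN3 cells, at −1.74, is the called point on the left.

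The calls of 1434148_at were lost without replicate 2 of either DN4 group in DN4 cells (values of 0.82 to 1.07) and without replicate 2 of either DP group in DP cells (0.71 to 0.92). The other DN4 calls were lost without any 1 of the 4 DN4 arrays, and that of 1434149_at also without a WT DN3 or an IkL/L DP array. In DP cells those of 1416723_at and 1416724_x_at were lost without any 1 array outside the IkL/L DN3 group, and that of 1424089_a_at without any 1 array of WT or of IkL/L DP. Each called difference stayed positive in these fits. With the replicate number as a block the DP calls of 1416724_x_at and 1424089_a_at were lost (adjusted p = 0.0535 and 0.0504). Most of the DN4 and DP calls were also lost without the 3 IkL/L replicate 2 arrays, which had the low Y-linked signal. That fit leaves 1 array in each IkL/L group. The share of all probe sets it called was not set beside this loss, so the loss is not read as a result about Tcf4.

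Plasmacytoid dendritic cell markers were looked at beside Tcf4. Of 7 tested markers, none was called in DN3 cells, Ccr9 was lower in IkL/L DN4 cells (−1.53, adjusted p = 0.000901) and Bst2 higher in IkL/L DP cells (1.29, adjusted p = 0.00632). In DN3 cells the mean of the 7 was 8.03 and 8.04 on WT and 7.77 and 7.59 on IkL/L arrays. In DN4 cells it was 7.75 and 7.96 on WT and 7.43 and 7.43 on IkL/L arrays. In DP cells it was 7.46 and 7.60 on WT and 7.86 and 7.72 on IkL/L arrays. The IkL/L means thus lay below those of WT in DN3 and DN4 cells and above them in DP cells. Siglech, a defining marker, read 4.82 to 5.50 on the 12 arrays, near the array medians, and did not pass the test between genotypes (−0.13, −0.19 and 0.10). DP-stage markers were split in DN4 cells. Of 5 tested, Cd8b1 (−1.65, adjusted p = 0.00433) and Ccr9 were called lower in IkL/L. Cd8a (−0.67), Cd4 (0.24) and Rag1 (0.52) were not called, with Cd4 and Rag1 of the other sign. The part of these markers in the Tcf4 difference was not tested. In bulk RNA, fewer cells of a type and less RNA per cell cannot be told apart.

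Along development in WT cells, Tcf4 fell from DN3 to DN4 on 3 of its 5 tested probe sets, by 0.74 on 1434148_at (adjusted p = 0.0128), 0.65 on 1416723_at (adjusted p = 0.0281) and 0.52 on 1416724_x_at (adjusted p = 0.0441). In this step 4 of 18 members and 6.35% of all probe sets were called. From DN4 to DP the probe sets parted: 1416723_at rose by 0.38 (adjusted p = 0.0474) while 1424089_a_at fell by 0.45 (adjusted p = 0.0373). The mean over all 6 probe sets of the gene gave −0.16 for the DN4 to DP step (adjusted p = 0.194). It includes the untested 1416725_at, below the median of every array, which averaged 4.42 in WT DN4 and 3.74 in WT DP cells. No direction is therefore given for the gene there. The DN3 to DN4 call of 1416723_at was lost without any 1 array of WT DN3 or WT DN4, that of 1416724_x_at also without an IkL/L DN4 or IkL/L DP array, and that of 1434148_at without WT DN3 replicate 1 or WT DN4 replicate 2. Of the DN4 to DP calls, that of 1416723_at was lost without any 1 array outside the IkL/L DN3 group, and that of 1424089_a_at without any 1 array of WT DN3 or WT DN4 or WT DP replicate 1. With the replicate number as a block both DN4 to DP calls and the DN3 to DN4 call of 1416724_x_at were lost (adjusted p = 0.0556, 0.0502 and 0.065). With the assumed pool as a random block 1424089_a_at was also called from DN3 to DN4 (−0.61, adjusted p = 0.0323).

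In IkL/L cells none of the 18 members was called from DN3 to DN4, where 2.80% of all probe sets were called and 4 members had an unadjusted limma p under 0.05. Tcf4 1416723_at differed by −0.39 in that step (adjusted p = 0.238). The difference between the genotypes in the step was tested directly and was 0.26 (SE 0.21, adjusted p = 0.759) for DN3 to DN4 and −0.19 (SE 0.21, adjusted p = 0.724) for DN4 to DP. Over all members these tests called 0 of 18 in both steps, where 0.0144% and 0.374% of all probe sets were called, and 0 and 1 members had an unadjusted limma p under 0.05. In order of level, 1416723_at ran IkL/L DN3, IkL/L DP, IkL/L DN4, WT DN3, WT DP and WT DN4, and only the last pair of neighbours differed beyond the 95% interval of a difference.

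Tcf12, which encodes the HEB protein, rose from DN4 to DP on 3 of its 5 probe sets in WT and on 2 in IkL/L cells. Over all tested probe sets this step called 55.6% in WT and 41.8% in IkL/L cells, so these counts are near the share over all. Its leading probe set 1427670_a_at read 12.10 and 12.13, 11.85 and 11.85, and 12.60 and 12.68 in WT DN3, DN4 and DP cells. The IkL/L arrays read 12.22 and 12.05, 12.09 and 12.19, and 12.59 and 12.62. The DP arrays lay above all DN arrays in both genotypes.

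From DN4 to DP it rose by 0.79 in WT (SE 0.12, 1.73-fold, adjusted p = 0.000273) and by 0.46 in IkL/L cells (SE 0.12, 1.37-fold, adjusted p = 0.0101). The difference between those steps was −0.33 (95% interval −0.70 to 0.04, adjusted p = 0.397). The WT call was kept without each array in turn, and the IkL/L call was lost without IkL/L DN4 replicate 1 or IkL/L DP replicate 2 (values of 0.41 to 0.51).

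A pair of Tcf12 probe sets had far larger steps than the other 3. On 1439209_at WT arrays read 9.16 and 8.11 in DN3, 8.36 and 7.34 in DN4 and 11.30 and 10.85 in DP cells. IkL/L arrays read 7.71 and 10.26, 9.52 and 10.15, and 11.34 and 10.90. The 2 IkL/L DN3 arrays differed more than any other pair, and both IkL/L DN4 arrays lay above both WT DN4 arrays.

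In the WT step from DN4 to DP this probe set rose by 3.22 (SE 0.69, 9.32-fold, adjusted p = 0.00262) and 1439619_at by 3.31 (SE 0.53, 9.91-fold, adjusted p = 0.000419). In IkL/L cells 1439619_at rose by 1.48 (SE 0.53, 2.80-fold, adjusted p = 0.044), a call lost without any 1 array of WT DN3, WT DN4 or IkL/L DP or without IkL/L DN4 replicate 1 (values of 1.08 to 1.89) or with the replicate number as a block (adjusted p = 0.0618). The difference between the genotypes in the step of 1439619_at was −1.82 (95% interval −3.48 to −0.17, adjusted p = 0.313). On 1439209_at the IkL/L step was 1.28 and not called (adjusted p = 0.167). The steps of 1421908_a_at were 0.14 in WT and 0.24 in IkL/L cells, and those of 1446294_at were 0.08 and 0.27, none called. The pair had a correlation of 0.98 over the 12 arrays, against 0.47 to 0.86 for the other pairs of Tcf12 probe sets.

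**Figure D3:**
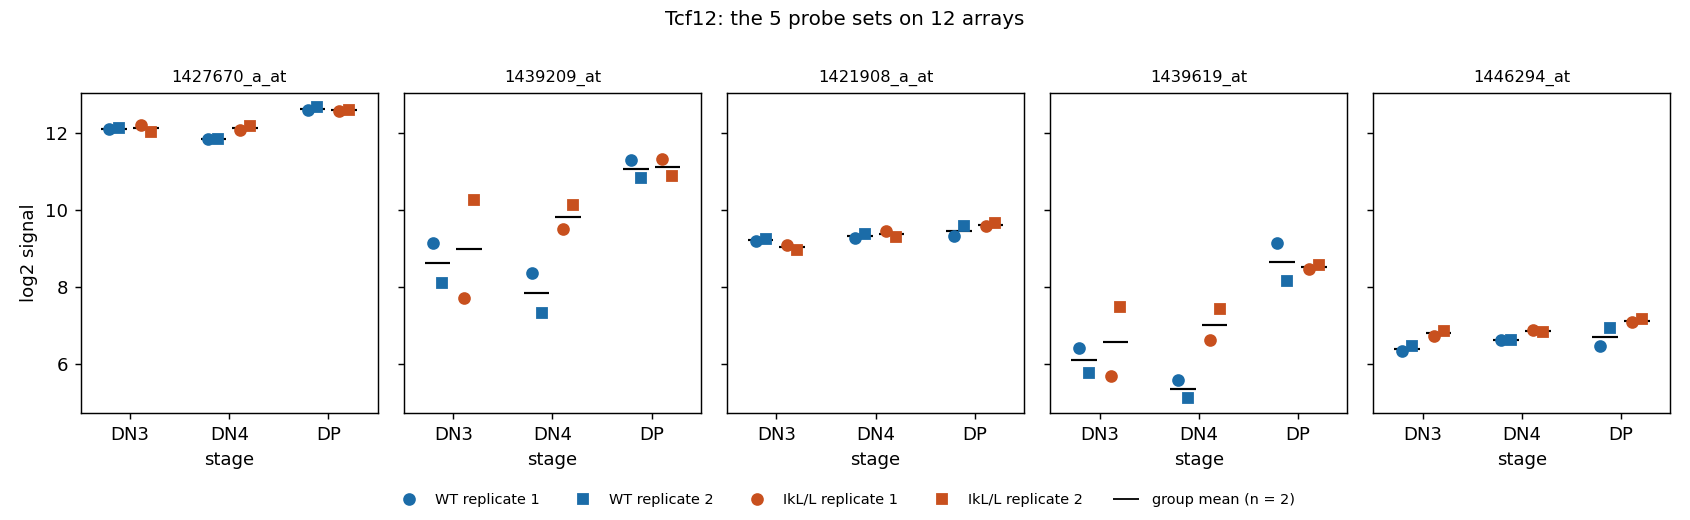
Log2 signal (y axis) of the 5 Tcf12 probe sets by stage (x axis), 1 panel each, on a shared axis. Circles are replicate 1, squares replicate 2, blue WT, orange IkL/L, and lines group means of 2 arrays. On 1439209_at and 1439619_at the signal rises by over 3 log2 units from WT DN4 to WT DP and the 2 IkL/L DN3 arrays lie far apart, while 1421908_a_at stays between 8.98 and 9.66.

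The 2 IkL/L DN3 arrays, at 7.71 and 10.26 on 1439209_at, were also those whose actin 3′ minus 5′ differences were 1.92 and 2.86. Myeloid cell markers averaged 6.03 and 5.14 on these arrays, beside 4.88 and 4.91 on the WT DN3 arrays. Erythroid cell markers averaged 6.1 and 5.2 on them, beside 5.3 and 5.6 on the WT DN3 arrays. The part of these markers in the Tcf12 values was not tested. With the actin difference as a covariate the WT DN4 to DP steps were 1.98 and 2.10 on 1439209_at and 1439619_at and stayed called. Between genotypes in DN4 cells the pair differed by 1.98 and 1.68 (95% intervals 0.45 to 3.51 and 0.51 to 2.85) and was not called (adjusted p = 0.126 and 0.0979). Without either IkL/L DN3 array, which leaves the DN4 arrays as they are and changes the estimate of the spread, both were called (adjusted p = 0.016 and 0.02).

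The other Tcf12 probe sets did not pass the test between genotypes. The leading one differed by 0.01, 0.29 and −0.04 in DN3, DN4 and DP cells, with an interval in DN4 cells of 0.03 to 0.55 (adjusted p = 0.172). On 1446294_at the differences were 0.40, 0.24 and 0.42, none called. On 1421908_a_at both IkL/L arrays lay below both WT arrays in DN3 cells (−0.18) and above them in DP cells (0.16), neither called. The order of levels of 1427670_a_at was WT DP, IkL/L DP, IkL/L DN4, IkL/L DN3, WT DN3 and WT DN4. The gaps between IkL/L DP and IkL/L DN4 and between WT DN3 and WT DN4 were beyond the 95% interval of a difference.

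Among the inhibitors, Id1 stayed near the array median in every group. Its probe set 1425895_a_at read 4.94 and 5.16, 4.96 and 5.28, and 4.95 and 4.97 in WT DN3, DN4 and DP cells, and 5.07 and 5.37, 4.81 and 4.97, and 5.11 and 5.24 in IkL/L cells. It reached the array median on 4 of 12 arrays. The genotype differences were 0.17, −0.24 and 0.21 in DN3, DN4 and DP cells, none called, and a signal this close to the median may be mostly background.

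Id2 was lower in IkL/L DN3 cells than in WT DN3 cells. Its leading probe set 1435176_a_at read 8.52 and 8.35 in WT DN3, 6.90 and 7.49 in WT DN4 and 7.00 and 6.82 in WT DP cells. The IkL/L arrays read 6.87 and 6.52 in DN3, 6.29 and 6.15 in DN4 and 6.29 and 7.78 in DP cells. The WT DN3 arrays were above all others, and the 2 IkL/L DP arrays were far apart.

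The DN3 difference was −1.74 (SE 0.38, 3.34-fold lower, 95% interval −2.59 to −0.89, adjusted p = 0.0424). In DN4 cells it was −0.97 (95% interval −1.82 to −0.13, adjusted p = 0.165) and in DP cells 0.12 (95% interval −0.72 to 0.97, adjusted p = 0.934). In WT cells the step from DN3 to DN4 was −1.24 and not called (adjusted p = 0.0925). The DN3 call was near the threshold: the difference ran from −1.91 to −1.57 as each array was left out, and the call was kept in 3 of these 12 fits, those without IkL/L DN3 replicate 1, IkL/L DP replicate 1 or IkL/L DP replicate 2, and lost without each of the others (adjusted p up to 0.294). It was also lost with no filter, array weights, a second quantile normalization, the replicate number or the assumed pool as a replicate block, or the arrays of the contrast alone (adjusted p of 0.0526 to 0.103). The mean over the 3 Id2 probe sets, of which the other two lie at the edge of the background, gave −0.86.

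Only WT DN3 differed from its neighbour in the order of Id2 levels beyond the 95% interval of a difference. The order was WT DN3, WT DN4, IkL/L DP, WT DP, IkL/L DN3 and IkL/L DN4. The second probe set 1422537_a_at read 5.35 and 5.68 in WT DN3 cells and 4.61 to 5.21 on the other arrays, so it passed the filter through 3 arrays of WT DN3 and WT DN4. It had a correlation of 0.88 with the leading one, and its DN3 difference was −0.67 (adjusted p = 0.145). The third, 1453596_at, read 4.69 to 5.60, passed the filter through 1 WT DN3 and 1 WT DP array, and had a correlation of 0.32 with the leading one. It was higher in WT DP than in WT DN4 cells by 0.60 (adjusted p = 0.011), a difference of signals at the level of the array median whose call was lost without WT DN4 replicate 1 or WT DP replicate 1.

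Markers of natural killer, innate lymphoid and gamma-delta T cells, in which Id2 is known to act, were looked at beside it. Of 7 tested, Nkg7 was lower in IkL/L cells, with differences of −1.74 in DN3 (adjusted p = 0.00265) and −2.29 in DN4 cells (adjusted p = 0.000546), Sox13 was lower in DN4 cells (−1.06) and Tbx21 higher in DP cells (0.85). Nkg7 read 10.38 and 10.05 in WT DN3 and 8.81 and 8.14 in IkL/L DN3 cells. The mean of the 11 markers on the array was 6.35 and 6.34 in WT DN3 and 6.37 and 6.14 in IkL/L DN3 cells, and Klrd1, a defining natural killer marker, read 3.34 to 4.54 on all arrays, below the array median. In DN4 cells the mean of these markers was 6.28 and 6.43 in WT and 5.90 and 5.92 in IkL/L arrays, with no overlap. DN3-stage markers also moved with the Id2 difference in DN3 cells: 1 of 6, Spib, was called lower, and the median difference of the 6 was −0.60. The part of these markers in the Id2 differences was not tested.

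Id3 rose from DN3 to DN4 in WT cells and did not pass the test between genotypes. Its probe set 1416630_at read 8.97 and 9.44, 9.88 and 10.21, and 9.83 and 10.30 in WT DN3, DN4 and DP cells. IkL/L arrays read 9.55 and 9.29, 10.17 and 10.24, and 10.58 and 10.53. Every DN3 array lay below every DN4 and DP array.

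The WT step from DN3 to DN4 was 0.84 (SE 0.20, 1.78-fold, adjusted p = 0.0379), and that in IkL/L cells 0.78 (95% interval 0.33 to 1.24, adjusted p = 0.0791, or 0.034 with the assumed pool as a random block). The difference between them was −0.05 (95% interval −0.69 to 0.59, adjusted p = 0.971). From DN4 to DP the steps were 0.02 in WT and 0.35 in IkL/L cells, not called. The WT call was lost without WT DN3 replicate 1 or any 1 array of WT DN4, IkL/L DN4 or IkL/L DP (values of 0.60 to 1.07).

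Genotype differences of Id3 were 0.22, 0.16 and 0.49 in DN3, DN4 and DP cells, with intervals of −0.24 to 0.67, −0.29 to 0.62 and 0.04 to 0.94 (adjusted p = 0.684, 0.666 and 0.277). Both IkL/L DP arrays lay above both WT DP arrays. Levels ran IkL/L DP, IkL/L DN4, WT DP, WT DN4, IkL/L DN3 and WT DN3, and the gap between WT DN4 and IkL/L DN3 alone was beyond the 95% interval of a difference.

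Genes around the family were read by the leading probe set, of which 3.06%, 4.78% and 4.50% were called between genotypes in DN3, DN4 and DP cells. The first list holds tissue-restricted helix-loop-helix partners and LIM cofactors. Of its 10 genes 4 were tested (Lyl1, Lmo2, Lmo4 and Ldb1) and limma called none at any stage, with 1, 0 and 0 at an unadjusted p under 0.05. Of 6 tested coactivators and corepressors, Kat2b, a histone acetyltransferase, was higher in IkL/L DN4 cells by 0.80 (adjusted p = 0.0111), from 9.07 and 8.86 in WT to 9.74 and 9.80 in IkL/L arrays. None of the 6 was called in DN3 or DP cells, with 0 and 1 at an unadjusted p under 0.05. Leaving out either IkL/L DN4 array or WT DN4 replicate 2 ended the Kat2b call, as did the mean of the gene's probe sets (0.49, adjusted p = 0.12).

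Among genes known to depend on E proteins in thymocytes, those called in DN3 cells were lower in IkL/L and those called in DP cells higher. Of 15 tested, 2 were lower and 0 higher in IkL/L DN3 cells, 1 higher and 0 lower in DN4 cells, and 3 higher and 0 lower in DP cells. Their median difference was −0.42, 0.13 and 0.15, beside −0.04, −0.002 and 0.03 over all leading probe sets. Single arrays moved these medians: without IkL/L DN3 replicate 2 the DN3 median was −0.17, the DN4 median was 0.22 and 0.25 without WT DN4 replicate 1 and 2 and 0.24 without replicate 1 of IkL/L DN4, and without WT DP replicate 2 the DP median was 0.35. DN3-stage markers, 4 of which are among these genes, were lower on the IkL/L than on the WT DN3 arrays. Spib, an Ets-family factor, read 7.92 and 8.05 in WT DN3 and 6.45 and 5.77 in IkL/L DN3 cells, a fall of 1.88 (adjusted p = 0.00162). Socs3, an inhibitor of cytokine signalling, was lower in IkL/L DN3 cells, by −0.85 on the log2 scale (adjusted p = 0.0474), and this call was kept in 2 of the 12 fits that leave out an array, those without an IkL/L DP array (values of −1.01 to −0.69 over all settings).

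Ptcra, the invariant chain of the pre-T cell receptor, read 8.06 and 8.76 in WT DP and 10.03 and 10.05 in IkL/L DP cells. The difference was 1.63 (SE 0.20, adjusted p = 0.00121). Notch1, the receptor that drives early T cell development, read 11.29 and 11.31 in WT DP and 12.84 and 12.77 in IkL/L DP cells, a difference of 1.50 (SE 0.16, adjusted p = 0.000487). Its DN4 difference was 0.84 (adjusted p = 0.0177), and Notch3 was higher in IkL/L DP cells by 0.83 (adjusted p = 0.0151). The Ptcra and Notch1 arrays did not overlap between the DP genotypes, and these DP calls and that of Spib in DN3 cells were kept without each array in turn. Fitted on the arrays of its contrast alone, the Spib difference was not called (adjusted p = 0.0752).

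Calls of the other genes were less firm. That of Notch1 in DN4 cells was lost without either WT DN4 array or IkL/L DN4 replicate 2, and that of Notch3 without any 1 of the 4 DP arrays or with the mean of its probe sets (0.48, adjusted p = 0.125). Of the 15 genes, Ptcra, Hes1, Notch3 and Spib are also on the list of DN3-stage markers, which averaged 6.30 and 6.51 on the WT DP and 7.24 and 7.53 on the IkL/L DP arrays. In DP cells 3 of those 6 markers were called higher in IkL/L, Ptcra, Notch3 and Dtx1 (2.53, adjusted p = 0.00185). Cd4 and Rag1, also E protein dependent and here DP-stage markers, differed by −0.18 and 0.09 in DP cells, not called. The part of the DN3-stage markers in these differences was not tested.

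**Figure D4:**
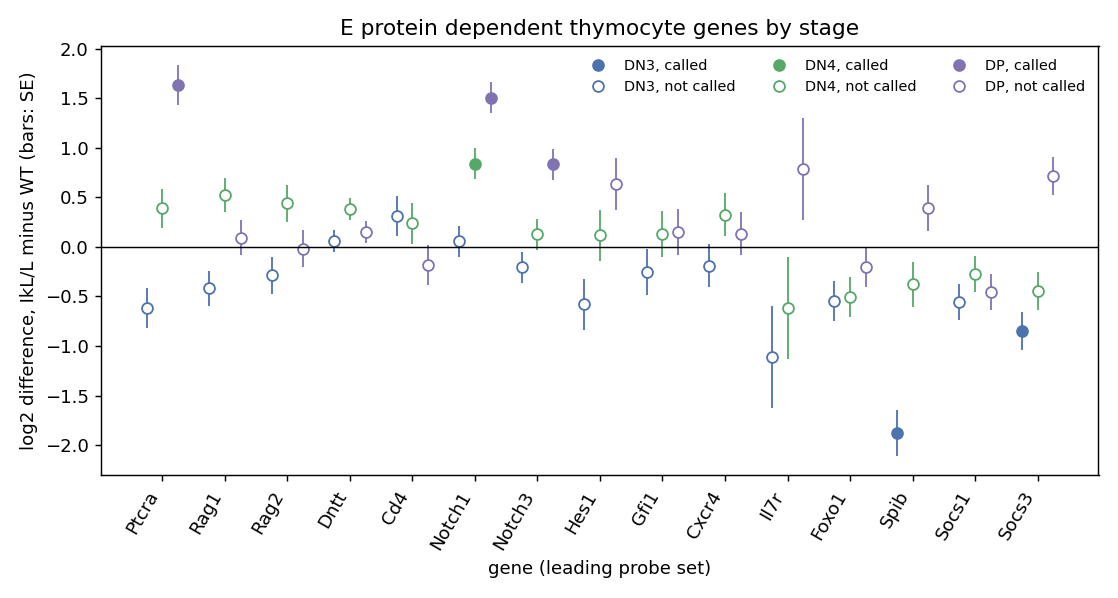
Difference between IkL/L and WT (y axis, log2, IkL/L minus WT) of 15 genes known to depend on E proteins (x axis), by leading probe set, in DN3, DN4 and DP cells. Bars are standard errors, and filled points have an adjusted p under 0.05. Spib lies at −1.88 in DN3 cells, and Ptcra and Notch1 at 1.63 and 1.50 in DP cells.

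Signals known to act upstream of Id genes included receptors of the bone morphogenetic protein and transforming growth factor families, Smad proteins, Egr factors and Nfat factors. Of 14 tested, 1 was higher and 2 lower in IkL/L DN3 cells, 1 higher and 1 lower in DN4 cells, and 2 higher in DP cells. Bmpr2, a receptor for bone morphogenetic proteins, was higher by 1.18, 1.53 and 1.34 at the 3 stages (adjusted p = 0.031, 0.00763 and 0.0122). It read 6.96 to 8.07 on WT and 8.57 to 9.08 on IkL/L arrays, with no overlap. With the mean of the gene's probe sets these differences were 0.50, 0.60 and 0.61 and not called. The DN3 call was also lost without any 1 array of WT DN3, IkL/L DN3, IkL/L DN4 or IkL/L DP, the DN4 call without replicate 1 of WT DN4 or IkL/L DN4, and the DP call without WT DP replicate 1 or either IkL/L DP array.

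The other called genes of this list were called at 1 stage each. Nfatc2 (−1.13) and Tgfbr1 (−0.69) were lower in IkL/L DN3 cells, Smad7 lower in DN4 cells (−0.89) and Bmpr1a higher in DP cells (0.65). The Nfatc2 call was lost without either WT DN3 array or IkL/L DN3 replicate 2, and its difference was −0.20 with the mean of the gene's probe sets. The Tgfbr1 call was kept in 3 of 12 fits that leave out an array, those without a WT DP array or IkL/L DN3 replicate 1, and lost with the mean of the gene's probe sets (−0.39). That of Smad7 was lost without any 1 of the 4 DN4 arrays or either IkL/L DP array, and that of Bmpr1a without any 1 of the 4 DP arrays or either WT DN3 array. Egr1 and Egr2, which T cell receptor signals are known to induce upstream of Id3, were not called between genotypes at any stage, with differences of −0.14, 0.40 and 0.04 for Egr1 and −0.26, −0.99 and −0.54 for Egr2.

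The genes whose pattern was most like that of each member were found by Pearson correlation of leading probe sets over the 12 arrays, as a description. For Tcf3 these were Scaf1, Tsc2 and Prrc2a (0.96 each), for Tcf4 Bcl2l2, Marveld1 and Laptm4b (0.95, 0.94 and 0.92), and for Tcf12 Zbtb18, Tnrc6b and Cert1 (0.99 each). For Id2 they were Gpr18, Arhgef10l and Prag1 (0.93, 0.92 and 0.91), and for Id3 Ifit2, Helb and Syt13 (0.95, 0.95 and 0.92). Id1, close to the array median, was nearest to 4930455C13Rik, Cfap43 and Rd3 (0.91, 0.88 and 0.87), whose group means spanned 0.26 to 0.31 log2 units. The arrays compared this way share their groups and stages.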

How the data were processed

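Sorted thymocytes were measured on 12 Affymetrix arrays, and groups were taken from the labels. The authors deposited log2 signal per probe set, made with RMA per the submitters' processing notes, whose version is not given in the sources used here. Symbols came from the platform annotation: of 45099 probe sets 34958 had 1 symbol, 932 several and 9209 none. Probe sets with several symbols were not analysed here. Members and gene lists were chosen with earlier results of these data known. The labels describe 3 labelling series without assigning samples to them, so labelling batch was not tested.

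Computed here, with limma 3.58.1 in R 4.3.3, was a model of the 6 groups over the 20865 probe sets that were at or above the array median on at least 2 arrays, with Benjamini-Hochberg adjustment over all of them and 6 residual and 4.21 prior degrees of freedom. Contrasts that share a group share its arrays. When an array was left out, the lone array of its group was assumed to vary like the other groups. Genes were named if members or listed genes past the threshold, and the 3 most correlated genes were named for each member. The fit was tested on simulated data. Alternatives covered the filter, probe set summary, normalization, array weights, replicate blocks, the actin covariate, a minimum difference and left-out arrays. Precision is limited by 2 arrays in each group.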

Additional observations from a re-analysis of the deposited data

Results flagged for a closer look

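The Tcf12 probe set 1421908_a_at had its IkL/L arrays below both WT arrays in DN3 cells, a difference of −0.18 on the log2 scale, and above both WT arrays in DP cells, a difference of 0.16. Neither was called, and the difference between these stages was not tested.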

How the results depend on the processing

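Counts of called members moved with the processing, and the causes were not tested. In DN3 cells the count of 1 became 0 with no filter, array weights, a second quantile normalization, either replicate block or the arrays of the contrast alone, and 2 with leading probe sets. In DN4 cells 4 became 1 with leading probe sets, 2 with gene means, 7 with array weights or the contrast alone, 0 with a minimum log2 difference of 1, and 1 without the 3 IkL/L replicate 2 arrays. In DP cells 4 became 1 with leading probe sets or gene means, 2 with arrays centred on their median or replicate number as a replicate block, and 0 with the minimum difference, the contrast alone or without the 3 IkL/L replicate 2 arrays. For DN3 to DN4 in WT, 4 became 2 with leading probe sets, gene means, centring or second quantile normalization, 7 with array weights or the contrast alone, and 0 with the minimum difference. For DN4 to DP in WT, 9 became 3 with leading probe sets or the minimum difference, 2 with gene means and 5 with the actin covariate. In IkL/L cells, 0 became 1 for DN3 to DN4 with leading probe sets, gene means or the assumed pool as a random replicate block. For DN4 to DP in IkL/L cells, 4 became 2 with no filter, leading probe sets or gene means, and 1 with the minimum difference. Leading probe sets and gene means count genes. The share of all probe sets called was not set beside each count, here or for the left-out arrays. The counts therefore describe the settings and are not results about the members.

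Leaving out each array gave 0 to 5 called in DN3, 0 to 7 in DN4 and 0 to 4 in DP cells, 0 to 6 and 4 to 9 in the WT steps, 0 to 1 and 0 to 6 in the IkL/L steps, and 0 in both differences between steps. The Tcf4 1416723_at step from DN4 to DP in WT reversed to −0.16 with gene means. Same-numbered replicates did not deviate together across genotypes (−0.43 to 0.18 over 9 pairs of groups); among the WT groups they did (0.40, 0.27 and 0.33), and among the IkL/L groups the correlations were 0.60, −0.11 and −0.15.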
